A study of Macaca mulatta with 24 samples.

Results

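Serotonin receptor genes were followed here across the layers of the lateral geniculate nucleus (LGN), the thalamic relay between the retina and the visual cortex. The members were the probe sets that the platform annotation assigns to exactly 1 of the symbols HTR7, HTR1A, HTR1B, HTR1D, HTR2A, HTR2B, HTR2C, HTR4 and HTR6. Of these 9 genes, 7 had a probe set, out of 14132 genes with a single symbol on the array, and HTR2C and HTR6 matched none. The 7 genes were read by 11 probe sets, 4 of them for HTR7 and 2 for HTR4. The family was picked because HTR7 differed between deprived and nondeprived parvocellular layers in these arrays. The members were thus chosen by the parvocellular deprivation signals of HTR7, and this comparison is given for the members as a description, without a test.

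The tissue came from infant rhesus macaques (Macaca mulatta) deprived of vision in the left eye from birth. One animal wore an opaque contact lens for 2 months and was studied at that age, and the other had the lids closed by tarsorrhaphy for 4 months. Each of 6 layers of both LGNs was captured by laser from pooled sections, without the koniocellular layers, and hybridized as 1 sample to a Rhesus Macaque Genome Array. The 24 arrays fall into 8 deprived parvocellular, 8 nondeprived parvocellular, 4 deprived magnocellular and 4 nondeprived magnocellular layers. Deprived were ipsilateral layers 2, 3 and 5 and contralateral layers 1, 4 and 6. The nondeprived layers lie in the same LGNs of the same animals, and no normally reared animal is among the arrays. Each duration is 1 animal and 1 method, so that duration, method and animal cannot be told apart, and p-values reflect how layers vary within the LGNs of 2 animals, not how animals vary.

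Serotonin reaches the LGN through fibers from the raphe nuclei of the brainstem, and it acts there mostly through receptors coupled to G proteins. HTR1A, HTR1B and HTR1D couple to Gi/o and lower cyclic AMP, HTR2A and HTR2B couple to Gq and phospholipase C, and HTR4 and HTR7 couple to Gs and raise cyclic AMP. In the thalamus serotonin is known for shifting the excitability of relay cells, in part through cyclic AMP and the pacemaker current.

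The signals are linear intensities in arbitrary units, scaled to a common trimmed mean, and the number of arrays limits their precision. Between 40.6% and 57.1% of the probe sets of an array had a signal of 100 or more. One array differed most from the rest, ipsilateral layer 2 at 2 months (deprived magnocellular), with a GAPDH 3′ to 5′ signal ratio of 50.8 against at most 14.3 elsewhere and a mean correlation of 0.811 with the other arrays against at least 0.885 elsewhere. Its median signal was 131, and those of layers 3 and 4 of the contralateral LGN at 2 months were 112 and 111, the next highest. Of the markers of relay neurons and thalamus, 5 of 10 were on the array and 3 of them read 100 or more in every array, whereas SLC17A7, a vesicular glutamate transporter, stayed below 100 in every array. Of the raphe markers, 3 of 5 were on the array. TPH2, the neuronal enzyme of serotonin synthesis, also stayed below 100 in every array, with group means of 6.38 to 16.7. The others, SLC18A2 and FEV, did not, with highest signals of 135 and 137.

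Only 1 of the 11 serotonin receptor probe sets reached a signal of 100 in most layers. MmuSTS.614.1.S1_at of HTR7, the Gs-coupled 5-HT7 receptor, reached 100 in 20 of 24 arrays, with a mean signal of 354 ± 271 (SD). A second HTR7 probe set, MmugDNA.39877.1.S1_s_at, reached 100 in 9 arrays, HTR1B in 7, HTR2A in 5, the HTR7 probe set MmugDNA.39901.1.S1_at in 3, and HTR1D and the HTR7 probe set MmugDNA.39877.1.S1_at in 1 each. HTR1A, HTR2B and both HTR4 probe sets stayed below 100 in all 24 arrays, with highest signals of 76.5 for HTR1A, 63.4 for HTR2B, 46.1 for MmugDNA.9314.1.S1_at and 17.7 for MmugDNA.23554.1.S1_at. Thus 7 of 11 probe sets, of 4 of the 7 genes, passed the minimum of 100 in at least 1 array and entered the fits with 37623 probe sets. A low signal does not show that a receptor is missing, and a level is not comparable between probe sets.

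**Figure D1:**
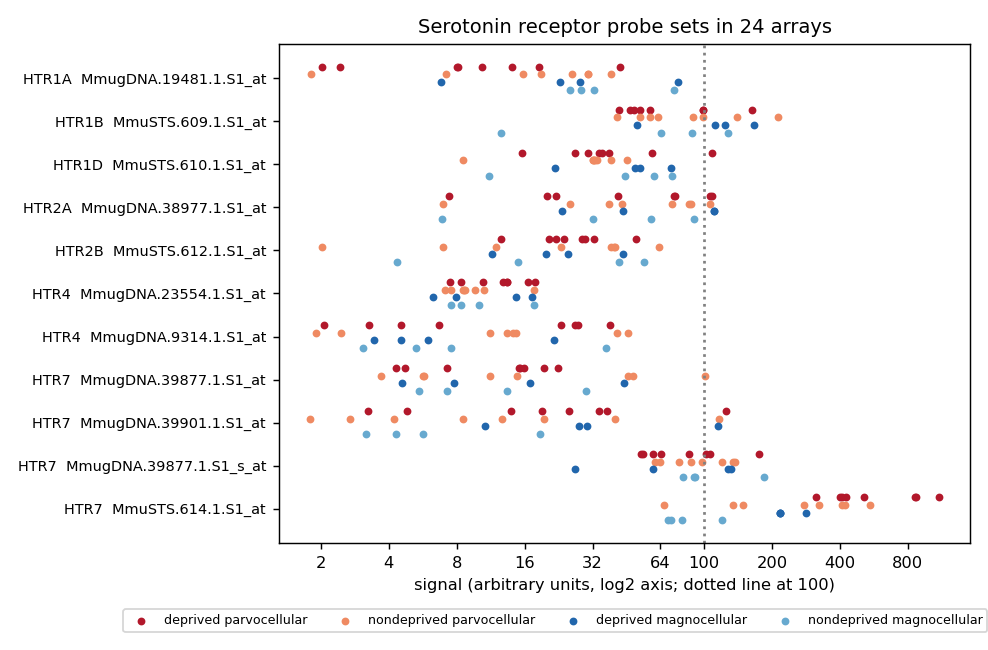
Signals of the 11 serotonin receptor probe sets in 24 arrays (x axis, arbitrary units, log2 axis; dotted line at 100), with 1 row for each probe set and 1 point for each captured layer, colored by group. The HTR7 probe set MmuSTS.614.1.S1_at reached 100 in 20 arrays, and HTR1A, HTR2B and both HTR4 probe sets in none.

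HTR7 as read by MmuSTS.614.1.S1_at was higher in deprived than in nondeprived parvocellular layers. In deprived parvocellular layers its signal (MmuSTS.614.1.S1_at) was 314 at the lowest, 470 at the median and 1100.2 at the highest, against a lowest of 66.3, a median of 300.02 and a highest of 542 in nondeprived parvocellular layers. The groups overlapped over all 4 LGNs, but the deprived layer was higher than its neighbor in 8 of 8 pairs of layers (3 with 4 and 5 with 6 of the same LGN), with ratios of 1.25 to 6.42 and a median ratio of 2.19. At least 6 of 8 pairs went that way in 19.4% of all probe sets, and the share with 8 of 8 was not counted. The log2 fold change of HTR7 (MmuSTS.614.1.S1_at) was 1.21 (SE 0.23). Of the 7 member probe sets in this fit this 1 passed an adjusted p of 0.05 from limma, among 0.97% of all probe sets (0.585% higher in deprived layers), and nothing is read from this count, since the comparison chose the family. For the other HTR7 probe sets the log2 fold change was -0.53 (MmugDNA.39877.1.S1_at), -0.21 (MmugDNA.39877.1.S1_s_at) and 0.79 (MmugDNA.39901.1.S1_at). The RNA of a captured layer comes from many cells, so that more cells of a type and more RNA per cell cannot be told apart.

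At 2 months the signal of HTR7 in the contralateral LGN was 408 in deprived layer 4 and 426 in deprived layer 6, against 148 in nondeprived layer 3 and 66.3 in nondeprived layer 5. In the ipsilateral LGN at 2 months it was 399 in deprived layer 3 and 314 in deprived layer 5, against 277 in nondeprived layer 4 and 134 in nondeprived layer 6. Within the animal deprived for 2 months the lowest deprived signal was 314 and the highest nondeprived one 277. At 4 months the contralateral LGN had 1100.2 in deprived layer 4 and 874 in deprived layer 6, against 323 in nondeprived layer 3 and 542 in nondeprived layer 5. The ipsilateral LGN at 4 months had 513 in deprived layer 3 and 857 in deprived layer 5, against 409 in nondeprived layer 4 and 422 in nondeprived layer 6. Here 1 nondeprived layer, contralateral layer 5, exceeded 1 deprived layer, ipsilateral layer 3. Within each LGN both deprived layers exceeded both nondeprived ones at either duration. The share of all probe sets with such separations was not counted, and these layers chose the gene, so that nothing is read from them. The widest pair was layers 6 and 5 of the contralateral LGN at 2 months and the narrowest layers 3 and 4 of the ipsilateral LGN at 4 months.

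**Figure D2:**
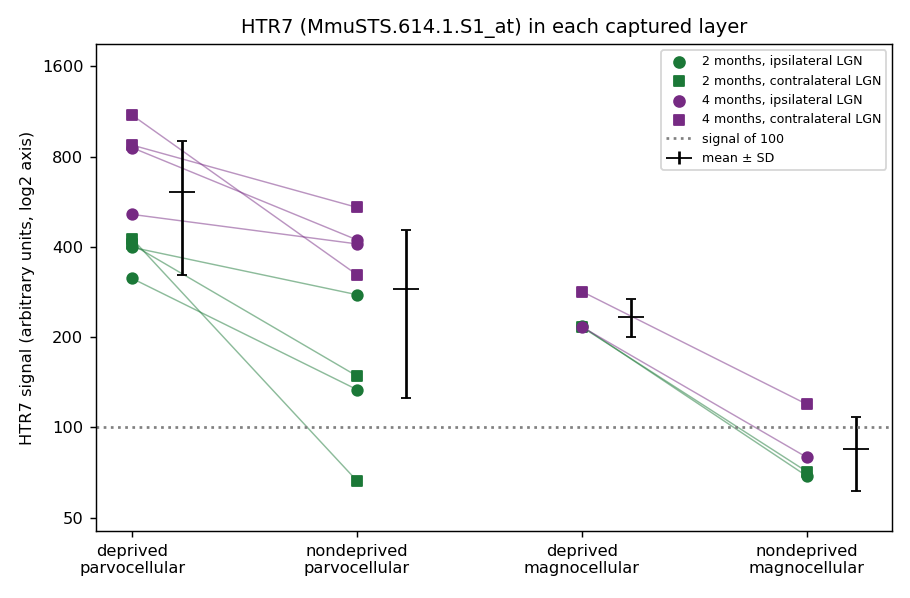
HTR7 signal (MmuSTS.614.1.S1_at, arbitrary units, log2 axis) in each of 24 captured layers by group, with color for duration, shape for side, lines joining the deprived and nondeprived layer of a pair, and bars for mean ± SD. The deprived layer is the higher in 8 of 8 parvocellular and 4 of 4 magnocellular pairs, and the nondeprived magnocellular layers span 68.8 to 119.5.

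Among astrocyte markers, 5 of 7 were on the array and all 5 read 100 or more in every array. One of the 5, GFAP, the intermediate filament of astrocytes, was also higher in deprived parvocellular layers, at 7563 ± 3633 (n = 8, SD) in deprived and 3283 ± 596 (n = 8, SD) in nondeprived layers, and its log2 fold change was 1.07 (limma adjusted p = 0.0184). The summed signal of the 5 astrocyte markers was 27905 to 61589 in deprived parvocellular layers and 28761 to 46235 in nondeprived ones. The log2 fold change was positive for 4 of the 5, with a median of 0.23, and 1 of the 5 passed, where 0.97% of all probe sets did. Microglial markers had a positive value in 7 of 7, with a median of 0.45, but 0 of 7 passed the test. Their summed signal was 6839 to 9449 in deprived parvocellular layers, against 5729 to 8206 in nondeprived ones. The 3 GABAergic and the 3 oligodendrocyte markers on the array were positive in 3 of 3 each, with medians of 0.29 and 0.16, and none of these passed (0 of 3 each). The summed signal of the GABAergic markers was 9590 to 16913 in deprived parvocellular layers, against 9323 to 14877 in nondeprived ones. The part of these cell types in the HTR7 difference was not tested. Adding the GAPDH ratio as a covariate gave HTR7 a log2 fold change of 1.06 in parvocellular layers.

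The magnocellular layers were not used to choose the family. The HTR7 signals given here are those of MmuSTS.614.1.S1_at. In deprived magnocellular layers HTR7 read 216 in contralateral layer 1 and 218 in ipsilateral layer 2 at 2 months, and 284 in contralateral layer 1 and 216 in ipsilateral layer 2 at 4 months. In nondeprived magnocellular layers it read 71.2 in contralateral layer 2 and 68.8 in ipsilateral layer 1 at 2 months, and 119.5 in contralateral layer 2 and 79.5 in ipsilateral layer 1 at 4 months. All 4 deprived layers lay above all 4 nondeprived layers, 3 of which were below 100. The mean signal was 234 ± 33.6 (n = 4, SD) in deprived and 84.8 ± 23.6 (n = 4, SD) in nondeprived magnocellular layers, and the ratio within an LGN was 2.38 to 3.16 with a median of 2.88.

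This separation did not pass the test over all probe sets. The log2 fold change of HTR7 (MmuSTS.614.1.S1_at) in magnocellular layers was 1.49 (SE 0.39), rank 95 of 37623 by p. Its unadjusted p was 0.00311 and its adjusted p 0.836 from limma. The other HTR7 probe sets had 0.18 (MmugDNA.39877.1.S1_at), -0.55 (MmugDNA.39877.1.S1_s_at) and 2.37 (MmugDNA.39901.1.S1_at). No member probe set (0 of 7) and no probe set at all (0 of 37623, or 0%) passed the adjusted p of 0.05. An unadjusted p under 0.05 was found for 2138 (5.68%), and among the member probe sets for MmuSTS.614.1.S1_at alone. Of all probe sets, 2.78% had all 4 deprived above all 4 nondeprived magnocellular layers and 10.6% had the deprived layer higher in 4 of 4 pairs. Over all probe sets the median log2 fold change was 0.13, and -0.15 after scaling the arrays to the same median, and HTR7 lay 1.36 above it either way. Without ipsilateral layer 2 at 2 months, the array that differed most from the rest, the log2 fold change of HTR7 was 1.43 (limma adjusted p = 0.822). In magnocellular layers 0 of 5 astrocyte markers passed, and their summed signal was 34264 to 63352 in deprived and 25188 to 54546 in nondeprived layers. The 3 GABAergic markers had positive log2 fold changes in 3 of 3, with a median of 0.79, and 0 of 3 passed. Their summed signal was 18517 to 24568 in deprived and 14416 to 16781 in nondeprived magnocellular layers. These sums did not overlap, but the ranges of each of the 3 markers did. How often other sums of 3 genes show such a gap was not counted, so that nothing is read from it. GAD1, most of the sum, read 16015 to 24134 in deprived and 14203 to 16324 in nondeprived magnocellular layers. Microglial markers were positive in 4 of 7, with a median of 0.11. The part of these cell types in the magnocellular difference of HTR7 was not tested. Whether the deprivation differences of parvocellular and magnocellular layers differ was not tested, because 1 of them chose the gene.

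HTR7 as read by MmuSTS.614.1.S1_at was higher in parvocellular than in magnocellular layers, a comparison balanced over deprivation. The signal averaged 451 ± 282 (n = 16, SD) in parvocellular and 159 ± 83.9 (n = 8, SD) in magnocellular layers, a log2 fold change of 1.40 (SE 0.21, limma adjusted p = 0.000171), or 2.64-fold. Relative to the median of all probe sets, which was -0.03 and after median scaling 0.08, HTR7 was 1.43 higher either way. It was the 1 of 7 member probe sets that passed, where 3.6% of all probe sets did and 2.25% were higher in parvocellular layers. The other HTR7 probe sets had log2 fold changes of 0.16 (MmugDNA.39877.1.S1_at), -0.0066 (MmugDNA.39877.1.S1_s_at) and 0.04 (MmugDNA.39901.1.S1_at). Among deprived layers the lowest parvocellular signal of MmuSTS.614.1.S1_at was 314 and the highest magnocellular one 284. The share of all probe sets with such a gap was not counted. Among nondeprived layers the parvocellular range of 66.3 to 542 overlapped the magnocellular range of 68.8 to 119.5 through 1 array, layer 5 of the contralateral LGN at 2 months. Restricted to deprived layers the log2 fold change was 1.26, and restricted to nondeprived layers it was 1.54. Either value rests on 1 side of the contrast that chose the gene and is given without a test.

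Within single LGNs, HTR7 exceeded the magnocellular mean in the parvocellular layers on the log2 scale by 0.71 in the contralateral and 1.09 in the ipsilateral LGN at 2 months, and by 1.80 in the contralateral and 2.00 in the ipsilateral LGN at 4 months. All 4 LGNs went the same way, and the share of all probe sets with the same sign in all 4 was not counted. In the animal deprived for 2 months alone the log2 fold change was 0.90 (limma adjusted p = 0.242), and in the animal deprived for 4 months alone it was 1.90 (limma adjusted p = 0.000247). The difference between both, 1.00 (SE 0.38), had an unadjusted p of 0.0149 and an adjusted p of 0.481 from limma, and did not pass. None of the members (0 of 7) passed this comparison, where 0.00797% of all probe sets did. The mean HTR7 signal of parvocellular layers was 272 ± 140 (n = 8, SD) at 2 months and 630.1 ± 278 (n = 8, SD) at 4 months, and that of magnocellular layers 143 ± 84.8 (n = 4, SD) at 2 months and 175 ± 92.7 (n = 4, SD) at 4 months. Without that same array, ipsilateral layer 2 at 2 months, the log2 fold change between the classes was 1.46 (limma adjusted p = 0.000235).

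Among the cell type markers, 3 passed the test between the classes, where 3.6% of all probe sets did, each in the direction opposite to HTR7. Lower in parvocellular than in magnocellular layers were NEFH, the heavy neurofilament protein of large axons (log2 fold change -0.66, 1 of 4 tested relay neuron markers), GAD1, an enzyme of GABA synthesis (-0.56, 1 of 3 tested GABAergic markers), and CD68, a lysosomal protein of microglia (-0.46, 1 of 7 microglial markers). The summed signal of the 3 GABAergic markers was 9323 to 16913 in parvocellular and 14416 to 24568 in magnocellular layers, taken over both eyes. That of the 5 relay neuron markers was 64307 to 106275 in parvocellular and 76243 to 126025 in magnocellular layers, and that of the 7 microglial markers 5729 to 9449 in parvocellular and 7789 to 11927 in magnocellular layers. Of the microglial markers 4 of 7 nevertheless had a positive log2 fold change, with a median of 0.27. Endothelial and mural cell markers were positive in 4 of 4, the direction of HTR7, with a median of 0.33, and 0 of 4 passed. Their summed signal was 1848 to 3225 in parvocellular and 1756 to 3244 in magnocellular layers. The part of these cell types in the HTR7 difference was not tested.

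**Figure D3:**
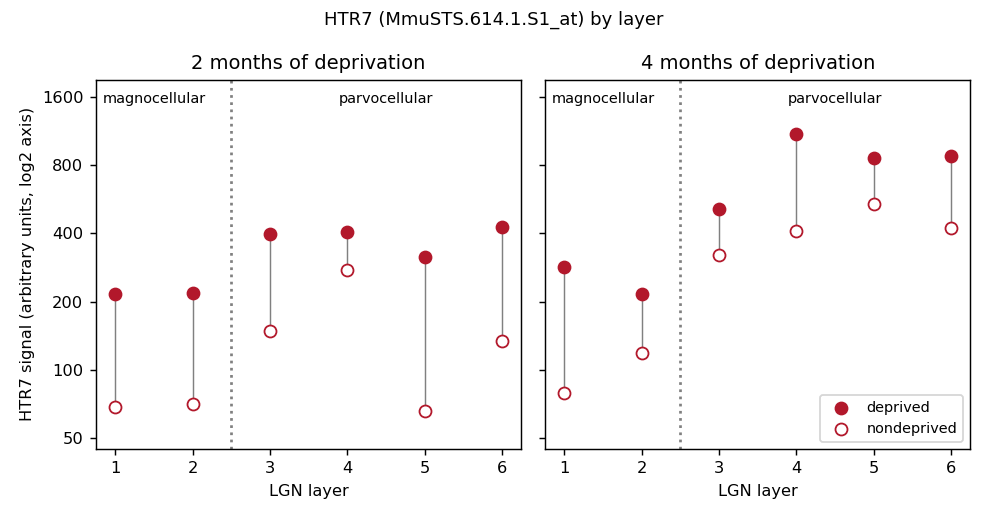
HTR7 signal (MmuSTS.614.1.S1_at, arbitrary units, log2 axis) by LGN layer, 1 to 6, in the animal deprived for 2 months (left) and for 4 months (right), with filled points for deprived and open points for nondeprived layers and a grey line joining both readings of a layer. The filled point is the higher in all 6 layers at either duration, and layers 3 to 6 lie above layers 1 and 2 at 4 months.

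By single layer, HTR7 averaged 162 ± 105 (n = 4, SD) in layer 1, 156 ± 72.9 in layer 2, 346 ± 153 in layer 3, 548 ± 373 in layer 4, 445 ± 336 in layer 5 and 464 ± 306 in layer 6. In ascending order of the means this is layer 2, 1, 3, 5, 6 and 4, and neighbors in that order differed by less than the SD of either, other than layers 1 and 3. At a given duration each layer number was read once deprived and once nondeprived, on opposite sides, and the deprived reading was the higher for all 6 numbers at 2 months and all 6 at 4 months. The smallest ratio of these was in layer 4 at 2 months, with 408 in the deprived and 277 in the nondeprived layer, and the largest in layer 5 at 2 months, with 314 in the deprived and 66.3 in the nondeprived layer. These readings include the parvocellular layers that chose the gene, and the share of all probe sets that go this way was not counted.

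Outer parvocellular layers 5 and 6 did not differ detectably from inner layers 3 and 4. The log2 fold change of HTR7, outer over inner, was -0.16 (SE 0.23, limma adjusted p = 0.853), and its sign turned to 0.11 after scaling to the same median and to 0.0017 after quantile normalization. The median over all probe sets was -0.10, and 0.18 after scaling, and HTR7 minus that median was -0.06 either way. No member (0 of 7) and no probe set (0%) passed, with 3377 of 37623 (8.98%) at an unadjusted p under 0.05. The LGNs of the 2 animals went opposite ways. At 2 months the outer minus inner difference on the log2 scale was -0.55 in the contralateral and -0.70 in the ipsilateral LGN, and at 4 months it was 0.21 in the contralateral and 0.39 in the ipsilateral LGN. The difference between the animals was 0.92 (SE 0.41), with an unadjusted p of 0.0396 and an adjusted p of 0.560 from limma, so that it did not pass the test; again 0 of 7 members and 0% of all probe sets did, with 3252 (8.64%) at an unadjusted p under 0.05.

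The deprivation difference of HTR7 in parvocellular layers was 2.07 in the contralateral and 0.88 in the ipsilateral LGN at 2 months on the log2 scale, and 1.23 in the contralateral and 0.67 in the ipsilateral LGN at 4 months. In magnocellular layers the same difference was 1.60 in the contralateral and 1.66 in the ipsilateral LGN at 2 months, and 1.25 in the contralateral and 1.44 in the ipsilateral LGN at 4 months. The values of parvocellular layers were larger on the contralateral side of either animal, and those of magnocellular layers were slightly larger on the ipsilateral side. The deprived layers have other layer numbers on the contralateral than on the ipsilateral side, so that side and layer number cannot be told apart here. The change of the parvocellular deprivation difference between durations, 4 minus 2 months, was -0.52 (SE 0.45, limma adjusted p = 0.973). It passed in 0 of 7 members and 0% of all probe sets, with 1465 of 37623 (3.89%) at an unadjusted p under 0.05. The parvocellular layers compared here are those whose deprivation difference chose the gene, so that nothing is read from the value of HTR7.

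**Figure D4:**
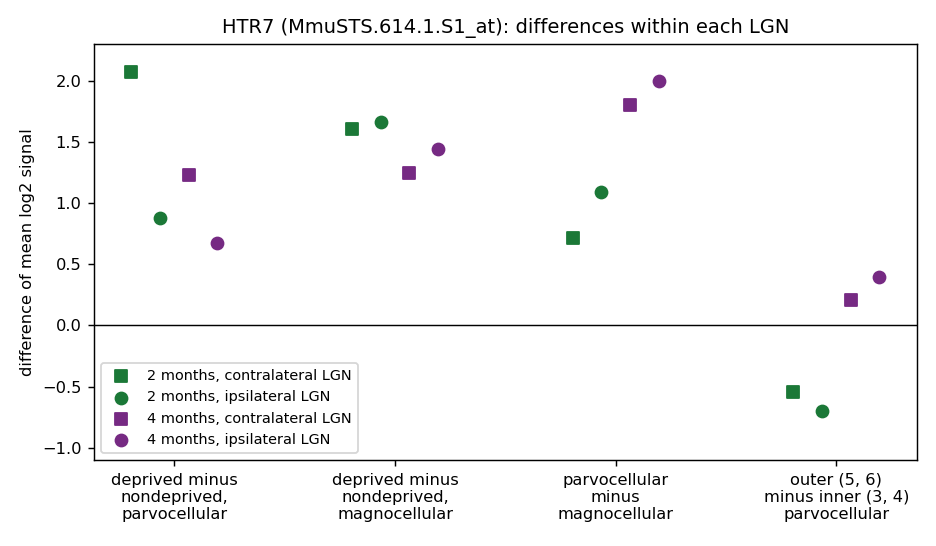
Differences of mean log2 signal of HTR7 (MmuSTS.614.1.S1_at) within each of 4 LGNs (y axis), with color for duration and shape for side. Deprived minus nondeprived and parvocellular minus magnocellular differences are positive in all 4 LGNs. Outer minus inner differences are below 0 at 2 months and above 0 at 4 months. The share of all probe sets with such signs was not counted.

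The other 3 HTR7 probe sets did not follow the bright one. Over 24 arrays the Pearson correlation of log2 signals with MmuSTS.614.1.S1_at was -0.29 for MmugDNA.39877.1.S1_s_at, 0.03 for MmugDNA.39877.1.S1_at and 0.26 for MmugDNA.39901.1.S1_at, over points that share LGNs and arrays. MmugDNA.39877.1.S1_s_at averaged 87.4 ± 41.4 (n = 8, SD) in deprived and 97.2 ± 30.1 (n = 8, SD) in nondeprived parvocellular layers, and 86.3 ± 51.8 (n = 4, SD) in deprived and 112 ± 48.9 (n = 4, SD) in nondeprived magnocellular layers. It was higher in the deprived layer in 4 of 8 parvocellular and 1 of 4 magnocellular pairs. MmugDNA.39877.1.S1_at had group medians of 10.3 to 15.1 and reached 100 in 1 array. Its deprived layer was higher in 3 of 8 parvocellular and 2 of 4 magnocellular pairs. MmugDNA.39901.1.S1_at had group medians of 4.98 to 29.1. The last of these was higher in the deprived layer in 6 of 8 parvocellular pairs, as were at least 6 of 8 for 19.4% of all probe sets, and in 4 of 4 magnocellular pairs, at signals that lay below 20 in the nondeprived layer of all 4. Which part of the HTR7 transcript each probe set reads is not annotated in the tables used here, so that the probe sets are reported apart.

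HTR1B, a Gi/o-coupled receptor known to sit on axon terminals, lay below the minimum of 100 in most layers. In deprived parvocellular layers it was 42.1 at the lowest, 54.5 at the median and 162 at the highest, against 41.1, 76.0 and 212 in nondeprived parvocellular layers. In deprived magnocellular layers it was 111, 124, 166 and 50.5, against 127, 88.2, 64.7 and 12.6 in nondeprived ones. All of these groups overlapped, and the deprived layer was higher in 2 of 8 parvocellular and 3 of 4 magnocellular pairs. In magnocellular layers its log2 fold change was 0.92 (SE 0.55, limma adjusted p = 0.836). It averaged 85.0 ± 49.2 (n = 16, SD) in parvocellular and 93.0 ± 49.2 (n = 8, SD) in magnocellular layers.

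By layer, HTR1B averaged 59.0 ± 21.3 (n = 4, SD) in layer 5 and 65.6 ± 23.0 in layer 6, against 117 ± 66.3 in layer 3 and 98.7 ± 61.2 in layer 4. The log2 fold change of outer over inner parvocellular layers was -0.64 (SE 0.25), with an unadjusted p of 0.0195 and an adjusted p of 0.521 from limma, the lowest of the members in that comparison, so that it did not pass. Its level moved with the median signal of the array, with a Pearson correlation of log2 values of 0.65 over 24 arrays, as did MmugDNA.39877.1.S1_s_at of HTR7 with 0.66, whereas that of MmuSTS.614.1.S1_at was -0.17. The highest reading of HTR1B, 212, came from contralateral layer 3 at 2 months, an array with a median signal of 112. After scaling to the same median the log2 fold change of HTR1B, outer over inner, was -0.37.

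HTR1D, the second Gi/o-coupled receptor in the fits, had group means of 43.4 ± 28.9 (n = 8, SD) in deprived and 31.99 ± 10.5 (n = 8, SD) in nondeprived parvocellular layers, and 48.7 ± 20.5 (n = 4, SD) in deprived and 46.9 ± 26.4 (n = 4, SD) in nondeprived magnocellular layers. It reached 100 in 1 array, with 108 in contralateral layer 4 at 2 months, a deprived layer, so that it entered the fits through that array alone. HTR1A, the third Gi/o-coupled member, did not enter the fits and read 2.02 to 42.3 in deprived parvocellular layers and 1.80 to 38.4 in nondeprived ones, and 6.80 to 76.5 in deprived and 25.4 to 73.6 in nondeprived magnocellular layers. Its highest signal was in ipsilateral layer 2 at 2 months, the array that differed most from the rest. These ranges overlapped for both genes.

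HTR2A, a Gq-coupled receptor, averaged 56.7 ± 39.6 (n = 8, SD) in deprived and 58.1 ± 34.7 (n = 8, SD) in nondeprived parvocellular layers, and 72.2 ± 45.4 (n = 4, SD) in deprived and 46.9 ± 35.8 (n = 4, SD) in nondeprived magnocellular layers. It reached 100 in 5 arrays, 4 of them at 4 months. In parvocellular layers at 2 months it was 7.401 in layer 3 and 6.98 in layer 4 of the ipsilateral LGN and 25.5 in layer 3 and 22.1 in layer 4 of the contralateral LGN, and at 4 months it was 107 and 87.2 in the same layers of the ipsilateral LGN and 106 and 108 in those of the contralateral LGN. The inner layers thus read 6.98 to 25.5 at 2 months and 87.2 to 108 at 4 months for HTR2A. Outer layers read 20.03 to 72.4 at 2 months and 38.0 to 85.9 at 4 months. How many of all probe sets separate the inner layers of the 2 animals was not counted. The difference of outer over inner between 4 and 2 months was -2.27 (SE 0.63), rank 179 of 37623, with an unadjusted p of 0.00219 and an adjusted p of 0.435 from limma, and did not pass. Readings at 2 months were far below 100 there, which makes the size of this value imprecise.

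HTR2B, the other Gq-coupled receptor, read 12.6 to 49.97 in deprived parvocellular layers and 2.02 to 63.4 in nondeprived ones, and 11.4 to 43.5 in deprived and 4.33 to 54.2 in nondeprived magnocellular layers. HTR4, the second Gs-coupled receptor, read 7.48 to 17.7 in deprived parvocellular layers and 7.11 to 17.6 in nondeprived ones with MmugDNA.23554.1.S1_at. The same probe set of HTR4 read 6.27 to 17.2 in deprived and 7.53 to 17.5 in nondeprived magnocellular layers, and the ranges overlapped. Its deprived layer was higher in 7 of 8 parvocellular and 1 of 4 magnocellular pairs, at signals under 20 throughout. At least 6 of 8 parvocellular pairs went that way in 19.4% of the probe sets tested, to which this probe set of HTR4 does not belong. The other HTR4 probe set, MmugDNA.9314.1.S1_at, read 2.07 to 38.1 in deprived parvocellular layers and 1.90 to 46.1 in nondeprived ones, and its deprived layer was higher in 2 of 8 pairs.

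Genes around the receptors were counted from lists of known components, each gene by its brightest probe set. Over all probe sets 0.97% passed with deprivation in parvocellular layers and 3.6% between the classes. With deprivation in magnocellular layers, outer over inner and for deprivation at 4 minus 2 months 0% passed. Of the genes for serotonin synthesis, storage and removal, 7 of 10 were on the array, 5 were tested and 0 passed in any of the 5 main comparisons (deprivation in either class, parvocellular over magnocellular, outer over inner, and deprivation at 4 minus 2 months). The median log2 fold change of this list, parvocellular over magnocellular, was -0.76 over 5 genes, against -0.03 over all probe sets tested, and the smallest p there was that of SLC29A4, a membrane transporter of monoamines, with -1.35 (SE 0.44, limma adjusted p = 0.0902). MAOA, the oxidase that degrades serotonin, averaged 2173 in deprived and 2230 in nondeprived parvocellular layers, and 1863 in deprived and 2929 in nondeprived magnocellular layers. Of the Gs and cyclic AMP pathway, which HTR7 feeds, 18 of 21 genes were on the array and tested, and 0 of 18 passed in any comparison. Their median log2 fold change in deprived parvocellular layers was 0.09, against -0.01 over all probe sets, and the smallest p was that of ADCY3, an adenylyl cyclase, with -0.51 (SE 0.21, limma adjusted p = 0.336).

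In the Gi/o pathway and GIRK channels, 9 of 12 genes were tested and 2 passed, both higher in parvocellular than in magnocellular layers, with a list median of 0.16 against -0.03 over all probe sets. Between the classes 3.6% of all probe sets passed, and 2.25% were higher in parvocellular layers. KCNJ6, a potassium channel subunit opened by G proteins, had a log2 fold change of 0.55 (SE 0.15, limma adjusted p = 0.0343). RGS14, which shortens G protein signals, had 0.67 (SE 0.15, limma adjusted p = 0.0104). In the Gq and phospholipase C pathway, 7 of 13 genes were tested and 2 passed, both lower in parvocellular layers, with a list median of -0.29. ITPR1, a calcium release channel of the endoplasmic reticulum, averaged 638 ± 191 (n = 8, SD) in deprived parvocellular and 1619 ± 436 (n = 4, SD) in deprived magnocellular layers, and 595 ± 109 (n = 8, SD) in nondeprived parvocellular and 1392 ± 344 (n = 4, SD) in nondeprived magnocellular layers. Its log2 fold change was -1.30 (SE 0.17, limma adjusted p = 2.65e-05), and that of PRKCB, a protein kinase C, was -0.46 (SE 0.12, limma adjusted p = 0.0247). Of 6 tested receptor-associated proteins (arrestins, receptor kinases and scaffolds) 0 passed in any comparison; ARRB1, an arrestin, came closest with deprivation in parvocellular layers, at 0.38 (SE 0.14, limma adjusted p = 0.259).

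In deprivation, 0 of 45 tested genes of these 5 lists passed in either class. Of all probe sets 0.97% passed in parvocellular and 0% in magnocellular layers, so that nothing is read from this count. The smallest p in the Gi/o list with deprivation in parvocellular layers was that of KCNJ6, with a log2 fold change of 0.18 (SE 0.09, limma adjusted p = 0.487), and in the Gq list that of ITPR3, with -1.85 (SE 0.51, limma adjusted p = 0.0940). ITPR3 averaged 31.1 in deprived and 84.5 in nondeprived parvocellular layers, both below 100, which makes the size of its value imprecise. In magnocellular layers the smallest p of the Gs list was that of RAPGEF3, a cyclic AMP-activated exchange factor, with 0.88 (SE 0.42, limma adjusted p = 0.836).

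Across the 24 arrays, after the mean of each LGN was removed, 5 genes with a mean signal of 100 or more were most like HTR7 (MmuSTS.614.1.S1_at) among 9453 symbols by Pearson correlation of log2 signals. They were TRPV2 (0.918), NASP (0.907), INHBA (0.873), ALPK3 (0.864) and MAGED4B (0.864). The arrays share LGNs and groups, and the correlations hold the deprivation difference that chose HTR7, so that they are descriptions. TRPV2, a calcium-permeable cation channel, averaged 550 in deprived and 285 in nondeprived parvocellular layers, and 381 in deprived and 123 in nondeprived magnocellular layers. INHBA, the activin A subunit, averaged 1337 in deprived and 720.2 in nondeprived parvocellular layers, and 647 in deprived and 147 in nondeprived magnocellular layers. As with HTR7, the nondeprived magnocellular layers were the lowest group of all 5 genes and the deprived parvocellular layers the highest. The 5 genes were chosen for their likeness to HTR7 over these same arrays, so that nothing is read from the shared order.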

How the data were processed

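The deposited values are 1 linear signal intensity per probe set and array, computed by the authors with GCOS after 2 rounds of RNA amplification and scaled to a common trimmed mean (2% cut at each end). The samples were grouped by their labels. Gene symbols came from the platform annotation, whose probe coordinates and sequences were not used here. Of 52865 probe sets 99 are controls and were left out, and the 37623 that reached 100 in 1 or more of the 24 arrays were tested. Signals under 1 were set to 1 before log2.

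Linear models per probe set were fitted in R 4.3.3 with limma 3.58.1, with eBayes with a trend and the LGN as a fixed block, and adjusted by Benjamini and Hochberg over all probe sets (threshold 0.05). Pairs are neighboring layers of an LGN (1 with 2, 3 with 4, 5 with 6). The fits were tested on simulated data. Alternatives were median scaling, quantile normalization, log2(signal + 16), signals raised to 50 where lower, a filter on the mean (100 or more), all probe sets unfiltered, eBayes with no trend, no LGN block, layer number as the block, the GAPDH ratio as a covariate, each array left out and each animal alone. Class comparisons within deprived or nondeprived layers, and the differences of class and of outer over inner layers between durations, were added after the data were seen. The genes named are all members and the 5 genes most like HTR7. In each list they are those that passed or else, for some comparisons, the 1 with the smallest p. SLC17A7, TPH2, SLC18A2, FEV and MAOA were named besides for their signal levels, outside that rule. The members and lists were chosen with earlier results of these data known.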

Additional observations from a re-analysis of the deposited data

Results flagged for a closer look

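In 10 of 28 combinations of a member probe set and a group, the highest or lowest array lay far from the rest of its group by Dixon's ratio. The cutoffs flag about 1 in 20 groups of normally distributed values. The signals here are linear and mostly low, and the probe sets share arrays. The share flagged over all probe sets was not counted, so that nothing is read from the count of 10. In the contralateral LGN at 2 months, deprived parvocellular layer 4 read 162 for HTR1B (others 42.1 to 99.0), 108 for HTR1D (others 15.6 to 58.8), 176 for MmugDNA.39877.1.S1_s_at of HTR7 (others 52.7 to 106) and 124 for MmugDNA.39901.1.S1_at of HTR7 (others 3.23 to 37.0). Nondeprived parvocellular layer 3 of the same LGN read 101 for MmugDNA.39877.1.S1_at (others 3.69 to 48.1) and 116 for MmugDNA.39901.1.S1_at (others 1.79 to 40.2), both of HTR7. These 2 arrays had median signals of 111 and 112, and the part of the array median in these readings was not tested. Nondeprived magnocellular layer 2 of that LGN read 185 for MmugDNA.39877.1.S1_s_at of HTR7 (others 80.5 to 91.5).

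Of the other 3, HTR1D read 8.57 in nondeprived parvocellular layer 4 of the ipsilateral LGN at 4 months (others 32.2 to 45.3), and MmugDNA.39901.1.S1_at of HTR7 read 18.6 in nondeprived magnocellular layer 2 of the contralateral LGN at 4 months (others 3.18 to 5.66). The bright HTR7 probe set MmuSTS.614.1.S1_at read 284 in deprived magnocellular layer 1 of the contralateral LGN at 4 months, where the other 3 lay within 216 to 218.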

How the results depend on the processing

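The count of member probe sets called stayed at 1 for parvocellular over magnocellular layers under the alternatives except in the animal deprived for 2 months alone, where it was 0 (HTR7 0.90, limma adjusted p = 0.242). For deprivation in parvocellular layers, a description here, the count was 1 and fell to 0 with eBayes without a trend, with no LGN block and in either animal alone. With an array left out it was 1 in either comparison, and it was 0 under every alternative in the other 3 main comparisons. The log2 fold change of HTR7 (MmuSTS.614.1.S1_at) with an array left out ranged over 1.32 to 1.504 between classes, 1.03 to 1.34 with deprivation in parvocellular layers, 1.43 to 1.57 in magnocellular layers and -0.85 to -0.17 for 4 minus 2 months. Outer over inner it ranged over -0.31 to 0.0239 with an array left out and turned to 0.11 with median scaling, 0.0017 with quantile normalization and 0.30 in the animal deprived for 4 months alone. With layer number within the animal as the block, the pairing of the same layer on both sides, HTR7 had 1.21 with deprivation in parvocellular layers. No paired analysis was possible by replicate number because the labels carry no such numbers, so pairs rest on the LGN and the layer number, which they do give. HTR1B kept its sign, at 0.15 to 1.68 with deprivation in magnocellular layers and -1.09 to -0.20 outer over inner, the ends of both ranges being the 2 animals alone, and it did not enter the fits that require a mean of 100.

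Over all probe sets, 365 were called with deprivation in parvocellular layers (220 higher, 145 lower), but 25 with median scaling (18 higher, 7 lower), 15 without a trend, 28 with no LGN block, 133 with layer number as the block, 596 with a mean of 100 or more, 7 at 2 months and 1 at 4 months, and 136 to 457 with an array left out. Between classes 1355 were called (846 higher, 509 lower), but 789 with median scaling (647 higher, 142 lower), 624 with no LGN block, 222 at 2 months, 368 at 4 months, 469 in nondeprived and 86 in deprived layers. In magnocellular layers 0 were called, but 2 with the GAPDH covariate, 1 at 2 months, 46 at 4 months and 0 to 9 with an array left out (6 without contralateral layer 1 and 9 without contralateral layer 2 at 2 months). Most receptor probe sets read near or below 100, where a change in signal cannot be told from noise in the signal, and 1 probe set carries the results for HTR7.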
